A study of Homo sapiens with 9 samples.

Results

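The insulin-like growth factor (IGF) system was followed here as 10 genes: the ligands IGF1 and IGF2, the receptors IGF1R and IGF2R, and the binding proteins IGFBP1 to IGFBP6. They were chosen by gene symbol alone, and all 10 were found among the 17687 genes with a symbol, each through a single transcript cluster, which is the set of array probes for 1 gene locus. Expression was measured on 9 arrays of HepG2 cells, a hepatoblastoma-derived human line in long use that keeps many hepatocyte features. Of these, 3 were from untreated cells, 3 from cells given recombinant SPARC at 200 ng/ml and 3 from cells given 800 ng/ml, with RNA collected at 24 h. Both doses come from the titles and treatment labels, whereas the RNA extraction protocol names only untreated cells and 800 ng/ml. SPARC (osteonectin) is a matrix-associated glycoprotein that binds collagen and alters how cells attach. The sources used here give neither the origin of the recombinant protein nor a mock treatment of the untreated cells, and no label says that the arrays of a group came from separate cultures. Every p-value therefore measures only the spread between these arrays, which may be technical. The deposited values are log2 signals without detection calls, so no gene can be called present or absent, and since a signal also depends on the probes, signals of different genes are not read as their relative transcript levels. In such bulk RNA, fewer cells that express a gene and less RNA per cell cannot be told apart.

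IGF1 and IGF2 are secreted peptides that promote growth by activating IGF1R, a tyrosine kinase receptor of the insulin receptor family. IGF2R, the cation-independent mannose 6-phosphate receptor, takes up IGF2 for degradation in lysosomes, and the binding proteins carry both ligands and limit their access to IGF1R. The adult liver is the main source of circulating IGF1 under growth hormone. IGF2 promotes fetal growth, and its expression is often high in liver tumours.

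Markers of the line were read on every array. The log2 signal of ALB (serum albumin) was between 12.14 and 12.46 on the 9 arrays, and that of AFP, its fetal counterpart, between 8.16 and 9.19. Untreated replicate 2 differed from all others, with a Pearson correlation across transcript clusters of 0.891 to 0.920, against 0.979 to 0.991 among the other 8. It is 1 of only 3 untreated arrays, so the differences of the 10 genes from untreated cells are given with and without it. The 800 ng/ml replicates 2 and 3 also stood apart: 13 of 15 listed neural and glial markers were measured, and they averaged 1.18 and 1.24 log2 units above the 8-array mean, which leaves out untreated replicate 2, against −0.47 to 0.04 on the other 7 arrays. On replicates 2 and 3, 11 and 13 of the 13 markers were above that mean. Replicate 1 of that dose was at −0.34.

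The regulatory sequence just before the start of these genes is shown because both receptors differ from several of the binding proteins in the short motifs it holds, which the choice of members did not use. RefSeq windows of GRCh38.p14 were matched for 8 of the 10 members by symbol, the exceptions being IGF2 and IGFBP1. The 140 bases before the start are given 5′ to 3′ for IGF1R (chr15:98648399-98648538, plus strand), IGF2R (chr6:159968942-159969081, plus strand), IGFBP3 (chr7:45921273-45921412, minus strand), IGFBP4 (chr17:40443310-40443449, plus strand) and IGFBP5 (chr2:216695550-216695689, minus strand). Capitals mark the motifs found on either strand: CACGTG (an E-box), GGGCGG (a GC box, marked as its reverse complement where it lies on the opposite strand) and 3 TATA-like words, namely TATAAA (the usual form), its variant TATATA, and a looser form, which is TTTAAA.
IGF1R: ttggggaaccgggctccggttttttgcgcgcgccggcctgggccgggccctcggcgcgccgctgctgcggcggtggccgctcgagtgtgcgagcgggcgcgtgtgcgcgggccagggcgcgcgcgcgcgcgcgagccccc
IGF2R: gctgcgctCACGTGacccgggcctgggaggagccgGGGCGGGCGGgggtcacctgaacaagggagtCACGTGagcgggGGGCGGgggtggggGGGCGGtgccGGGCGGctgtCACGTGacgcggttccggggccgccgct
IGFBP3: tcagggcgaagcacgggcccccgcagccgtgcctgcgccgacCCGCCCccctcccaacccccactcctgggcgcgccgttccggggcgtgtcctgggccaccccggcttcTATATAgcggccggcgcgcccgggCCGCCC
IGFBP4: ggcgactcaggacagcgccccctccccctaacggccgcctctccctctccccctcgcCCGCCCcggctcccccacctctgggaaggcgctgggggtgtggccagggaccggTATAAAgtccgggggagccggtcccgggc
IGFBP5: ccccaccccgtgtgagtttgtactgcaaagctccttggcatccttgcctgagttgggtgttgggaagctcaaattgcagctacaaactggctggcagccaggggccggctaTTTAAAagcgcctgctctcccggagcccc

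The 3 binding protein promoters printed each held 1 TATA-like word at nearly the same place. It was TATATA starting 30 bases before the start of IGFBP3, TATAAA at 29 bases before IGFBP4 and TTTAAA at 29 bases before IGFBP5. No such word was found in the 250 bases before IGFBP6, IGFBP2 or IGF1 in any of their windows, nor before IGF1R or IGF2R, which had GC contents of 81.2% and 79.2%, against a median of 58% over 35116 windows. GC content was also above that median in IGFBP3, at 76%, in IGFBP4, at 71.6%, and in IGFBP5, at 61.2%. The 2 GC boxes of IGF1R lie further upstream, at 205 and 192 bases before its start. IGF2R held 3 E-boxes, at 132, 74 and 28 bases before its start, and 6 GC boxes, 2 of which overlap each other. Over all windows of 250 bases, 6.35% held at least 1 CACGTG and 0.0797% at least 3. The word TATAAA was found in 10.7% of windows, the variant TATATA in 3.73%, the looser form TTTAAA in 11.3% and the GC box in 42.6%. The motifs were chosen after the sequences had been read, and a match describes the letters and says nothing of a factor bound in these cells.

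None of the 10 genes passed the test in any comparison. A gene was called at a Benjamini-Hochberg adjusted p under 0.05 in limma over all 17687 genes. In 800 ng/ml against untreated cells 0 members were called, and the share called among all genes was 0%. The same held for 200 ng/ml against untreated cells and for 800 against 200 ng/ml, with 0% of all genes called in each. At an unadjusted p under 0.05 there were also 0 members in each comparison, against 4.17%, 1.78% and 2.41% of all genes in the same order. The smallest adjusted p of a member was 0.659, 0.966 and 0.999. The account of each gene below therefore turns on its level in each array, and on how large a difference its interval still allows.

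**Figure D1:**
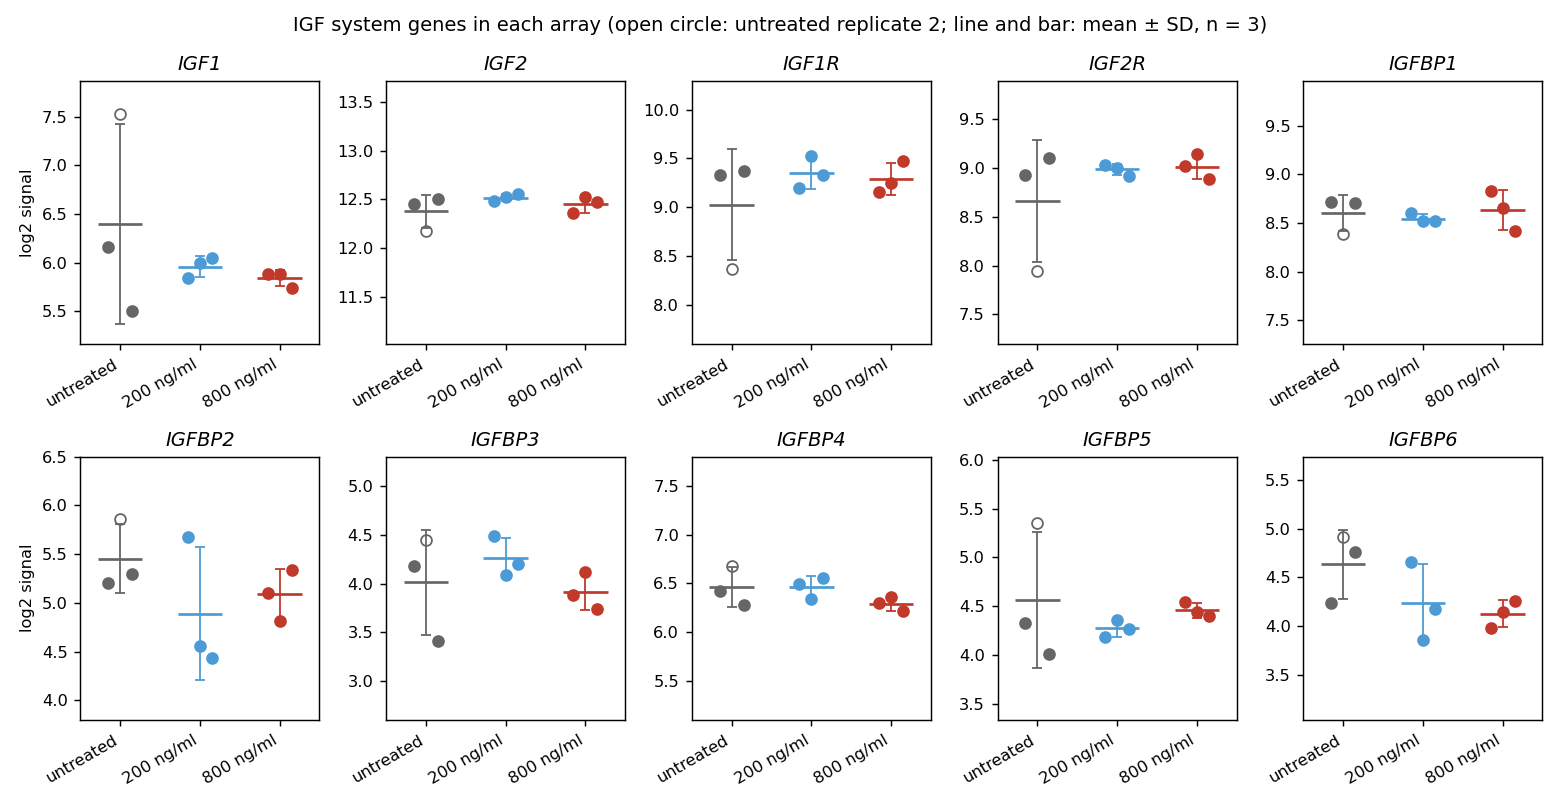
Log2 signal of the 10 IGF system genes on each of the 9 arrays, by SPARC dose, each panel spanning the same height of log2 units. Filled circles are arrays, the open circle is untreated replicate 2, and lines with bars are means ± SD (n = 3 arrays). For IGF1, IGFBP5, IGF2R and IGF1R the open circle lies far from both other untreated arrays, while the 200 and 800 ng/ml arrays lie close to those.

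Of the ligands, IGF2 was the steadier across arrays. It had log2 signals of 12.45, 12.18 and 12.50 in untreated replicates 1, 2 and 3, of 12.48, 12.52 and 12.55 at 200 ng/ml, and of 12.35, 12.53 and 12.47 at 800 ng/ml. All arrays but untreated replicate 2 thus fell within 0.20 log2 units of each other. The log2 difference from untreated cells was 0.08 at 800 ng/ml (95% interval −0.31 to 0.46) and 0.14 at 200 ng/ml (−0.25 to 0.53). Without untreated replicate 2 it was −0.02 (−0.27 to 0.23) and 0.04 (−0.21 to 0.29), so that a change of IGF2 larger than 1.22-fold up or a ratio below 0.829 lay outside both intervals.

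IGF1, the growth hormone-dependent ligand, varied most among the untreated arrays. It had 6.16, 7.53 and 5.50 in untreated replicates 1, 2 and 3, 5.84, 5.99 and 6.05 at 200 ng/ml, and 5.89, 5.89 and 5.74 at 800 ng/ml. The treated arrays of both doses lay between untreated replicates 3 and 1, and only untreated replicate 2 was higher. The log2 difference from untreated was −0.56 ± 0.39 (SE) at 800 ng/ml and −0.44 ± 0.39 at 200 ng/ml (limma, adjusted p = 0.659 and 0.966). Without untreated replicate 2 these became 0.0072 ± 0.18 and 0.13 ± 0.18, with intervals of −0.40 to 0.42 and −0.28 to 0.54.

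Both receptors had their lowest signal in untreated replicate 2. IGF1R had 9.33, 8.37 and 9.37 in untreated replicates 1, 2 and 3. It had 9.19, 9.52 and 9.33 at 200 ng/ml and 9.15, 9.24 and 9.47 at 800 ng/ml. The groups overlapped, and the highest and the lowest of the 8 other arrays, which were both from treated cells, were 0.37 log2 units apart. Its SD within groups over those 8 arrays was 0.15, larger than that of 90.4% of genes of similar brightness. The log2 difference at 800 ng/ml was 0.27 ± 0.27 (SE) with all arrays and −0.060 ± 0.14 without untreated replicate 2, and at 200 ng/ml it was 0.33 ± 0.27 and −0.0026 ± 0.14.

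IGF2R, which removes IGF2, had 8.93, 7.95 and 9.11 in untreated replicates 1, 2 and 3, 9.03, 9.004 and 8.92 at 200 ng/ml, and 9.02, 9.14 and 8.89 at 800 ng/ml. The treated arrays lay between 8.89 and 9.14, reaching below and above untreated replicates 1 and 3, and untreated replicate 2 was lower by 1.07 log2 units than their mean. The difference of 0.36 (95% interval −0.25 to 0.96) at 800 ng/ml and of 0.33 (−0.27 to 0.93) at 200 ng/ml shrank to −0.0017 (−0.28 to 0.28) and −0.031 (−0.31 to 0.25) without that array. For both receptors the differences were within the spread between arrays.

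The deviation of untreated replicate 2 ran with the brightness of a gene, and the IGF genes followed this only in part. It lay outside the range of the other 8 arrays for 9 of the 10 members, and for 74.3% of all genes. It was above the 8-array mean for IGF1 and IGFBP2 to IGFBP6 and below it for IGF2, IGF1R, IGF2R and IGFBP1. Relative to untreated replicates 1 and 3, IGF1R was at −0.99 and IGF2R at −1.07, where the median gene of the same brightness class (all genes split into 10 equal classes by signal) was at −0.73. IGF2 and IGFBP1 deviated less, by −0.30 and −0.33. IGFBP5 was at 1.19, where the median of its class was 0.64. IGF1 was at 1.69, higher than 97.7% of the genes of its own class, whose median was −0.19. In the same array 7 of 9 listed fibroblast and stellate cell markers were measured and averaged 0.70 above the mean of the other 8 arrays, which lay between −0.12 and 0.16. The 7 blood and Kupffer cell markers averaged 0.80, the 7 endothelial markers 0.40, and 8 of 9 listed hepatocyte markers −0.26. Above the 8-array mean were 6 fibroblast and stellate, 5 blood and Kupffer, 5 endothelial and 2 hepatocyte markers. In the class nearest in mean signal, the median gene was at 0.33 for the fibroblast and endothelial lists. It was at −0.19 for the blood list and −0.73 for the hepatocyte list, relative to untreated replicates 1 and 3. Whether the lists depart from genes of their own brightness was not tested. The part that the quality or makeup of untreated replicate 2 had in its IGF1 value was not tested.

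**Figure D2:**
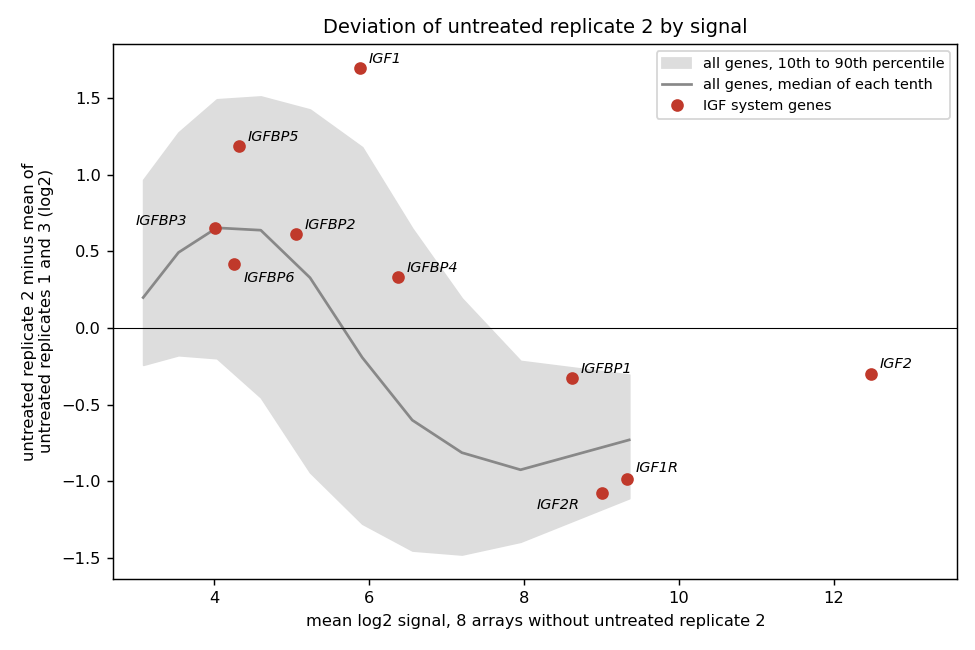
Deviation of untreated replicate 2 from the mean of untreated replicates 1 and 3 (log2, vertical) against the mean log2 signal of the other 8 arrays (horizontal). Red points are the 10 IGF system genes, the grey line is the median of all genes in each of 10 signal classes, drawn at the class mean, and the band spans the 10th to the 90th percentile. IGF1 at 1.69 lies above the band, and IGF2 at −0.30 lies beyond the mean signal of the brightest class.

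Among the binding proteins, IGFBP1 is the one that hepatocytes secrete in fasting, when insulin is low. It had log2 signals of 8.72, 8.38 and 8.71 in untreated replicates 1, 2 and 3, of 8.60, 8.52 and 8.52 at 200 ng/ml, and of 8.83, 8.66 and 8.42 at 800 ng/ml. The 800 ng/ml arrays spanned a wider range than those of 200 ng/ml and overlapped both other groups. Against untreated cells the log2 difference was 0.034 (95% interval −0.38 to 0.45) at 800 ng/ml and −0.056 (−0.47 to 0.36) at 200 ng/ml. With untreated replicate 2 left out, all 200 ng/ml arrays lay below both remaining untreated arrays, with a difference of −0.17 ± 0.14 (SE; limma, adjusted p = 0.665), and the difference at 800 ng/ml was −0.075 (−0.38 to 0.23). In that fit the 200 ng/ml and untreated groups did not overlap for 31.5% of all genes, and 17.8% were lower at 200 ng/ml, so 1 of 10 members without overlap is no more than the background.

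IGFBP2, a binding protein of the fetal liver, was the most variable member over the 8 arrays other than untreated replicate 2, and IGF1 was when that array is kept. IGFBP2 had 5.21, 5.86 and 5.30 in untreated replicates 1, 2 and 3, 5.68, 4.56 and 4.44 at 200 ng/ml, and 5.10, 4.82 and 5.34 at 800 ng/ml. The 200 ng/ml arrays disagreed among themselves, with replicate 1 above every array other than untreated replicate 2 and replicates 2 and 3 below all others. Over the other 8 arrays its SD within groups was 0.46, larger than that of 98.5% of genes of similar brightness. The log2 difference was −0.37 ± 0.32 (SE) at 800 ng/ml and −0.57 ± 0.32 at 200 ng/ml with all arrays. Leaving out untreated replicate 2 gave −0.17 ± 0.33 and −0.36 ± 0.33, and with 200 ng/ml replicate 1 left out instead, the difference at 200 ng/ml was −0.96.

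IGFBP3, the main carrier of IGFs in blood, had low probe signals. It had 4.18, 4.45 and 3.41 in untreated replicates 1, 2 and 3, 4.49, 4.09 and 4.21 at 200 ng/ml, and 3.89, 4.12 and 3.74 at 800 ng/ml. The 2 doses overlapped only through 200 ng/ml replicate 2 and 800 ng/ml replicate 2. The difference of 800 from 200 ng/ml was −0.35 ± 0.26 (SE), and ± 0.20 without untreated replicate 2 (limma, adjusted p = 0.999 and 0.429). Against untreated cells it was −0.098 ± 0.26 at 800 ng/ml and 0.25 ± 0.26 at 200 ng/ml, and without untreated replicate 2 it was 0.12 ± 0.23 and 0.47 ± 0.23. Its untreated replicate 3 was the lowest of all arrays, and without it the differences at 800 and 200 ng/ml were −0.40 and −0.051. IGFBP1 and IGFBP3 are neighbouring genes on chromosome 7, as IGFBP2 and IGFBP5 are on chromosome 2.

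IGFBP4, an inhibitory binding protein that the protease PAPP-A cleaves, had 6.42, 6.68 and 6.28 in untreated replicates 1, 2 and 3. It had 6.49, 6.34 and 6.56 at 200 ng/ml and 6.29, 6.36 and 6.22 at 800 ng/ml. These signals were among the steadier ones, with an SD within groups of 0.095 without untreated replicate 2, larger than that of only 11.7% of genes of similar brightness. The doses overlapped only through 800 ng/ml replicate 2 and 200 ng/ml replicate 2, and 800 minus 200 ng/ml was −0.17 ± 0.11 (SE) without untreated replicate 2 (limma, adjusted p = 0.457). Against untreated cells the difference was −0.17 at 800 ng/ml (95% interval −0.57 to 0.23) and 0.0047 at 200 ng/ml (−0.40 to 0.41) with all arrays. It was −0.057 (−0.33 to 0.21) and 0.12 (−0.16 to 0.39) without untreated replicate 2.

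IGFBP5, which binds extracellular matrix as well as IGFs, was the only member whose 2 dose groups did not overlap. It had 4.54, 4.44 and 4.40 at 800 ng/ml, against 4.18, 4.36 and 4.27 at 200 ng/ml, a log2 difference of 0.19 ± 0.29 (SE) with all arrays and ± 0.12 without untreated replicate 2 (limma, adjusted p = 0.999 and 0.457). Untreated replicates 1, 2 and 3 had 4.32, 5.35 and 4.01, a wider span than that of all treated arrays. Against untreated cells the difference was −0.10 at 800 ng/ml (95% interval −0.75 to 0.54) and −0.29 at 200 ng/ml (−0.94 to 0.35) with all arrays. Both signs turned without untreated replicate 2, to 0.29 (−0.0049 to 0.59; limma, adjusted p = 0.936) and 0.10 (−0.19 to 0.40), and the 800 ng/ml arrays then lay above both remaining untreated arrays. The background is large in both cases: the groups did not overlap for 21.9% of all genes between the doses, 12.1% being higher at 800 ng/ml, and for 22.3% against the 2 untreated arrays, 10.5% being higher. The highest of the 800 ng/ml arrays for IGFBP5 was replicate 1, whose neural and glial markers were at −0.34, and replicates 2 and 3 were lower. These 3 arrays spanned only 0.15 log2 units, and the part of the neural and glial transcripts in IGFBP5 was not tested.

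IGFBP6, which prefers IGF2 over IGF1, had 4.23, 4.92 and 4.76 in untreated replicates 1, 2 and 3. It had 4.66, 3.86 and 4.18 at 200 ng/ml and 3.98, 4.15 and 4.26 at 800 ng/ml. The treated arrays lay mostly below the untreated ones, but 200 ng/ml replicate 1 and 800 ng/ml replicate 3 lay above untreated replicate 1. The log2 difference was −0.51 ± 0.25 (SE) at 800 ng/ml and −0.40 ± 0.25 at 200 ng/ml (limma, adjusted p = 0.659 and 0.966). It kept its sign without untreated replicate 2, at −0.37 ± 0.24 and −0.26 ± 0.24, and the intervals of −0.90 to 0.16 and −0.79 to 0.27 included 0.

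**Figure D3:**
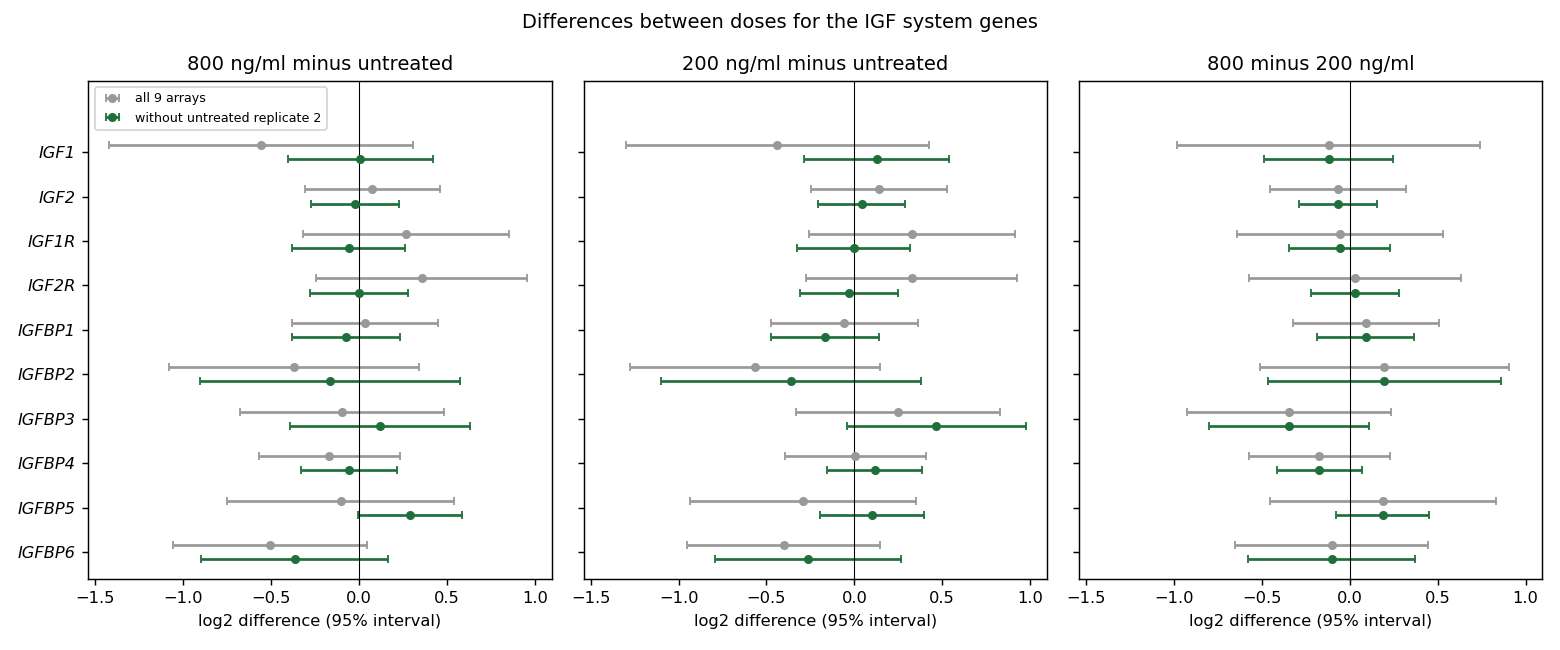
Log2 differences of the 10 IGF system genes with their 95% intervals from limma, in 800 ng/ml minus untreated (left), 200 ng/ml minus untreated (middle) and 800 minus 200 ng/ml (right). Grey is the fit of all 9 arrays and green the fit without untreated replicate 2. Every interval includes 0, and the green intervals are narrower for all members but IGFBP2 against untreated cells.

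By sign, 4 of the 10 members were higher at 800 ng/ml than in untreated cells, where 54.6% of all genes were, and 5 of 10 at 200 ng/ml, where 54.1% were. Their median log2 difference was −0.10 and −0.026, against 0.044 and 0.027 over all genes. Both comparisons use the same untreated arrays. Leaving out untreated replicate 2, there were 3 and 5 higher members, against 48.2% and 47.2% of all genes, with medians of −0.040 and 0.020 against −0.0060 and −0.016. Between the doses, 4 of 10 members were higher at 800 ng/ml, against 52.3% of all genes, with a median of −0.061 against 0.013.

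The intervals say how large a change the design leaves possible. In the fit without untreated replicate 2, the narrowest against untreated cells was that of IGF2, at 1.19-fold either way around the estimate, and the widest that of IGFBP2, at 1.67-fold. The members are split here by probe signal as a description only, and whether signal sets the precision was not tested. The half-width, from the estimate to either end of the interval, was 0.30 for IGFBP5, a gene of low signal. It was 0.32 for IGF1R and 0.31 for IGFBP1, which had higher signals. For the low signals of IGF1, IGFBP2, IGFBP3 and IGFBP6 it was 0.41, 0.74, 0.51 and 0.53. The 5 members with the higher signals, which are IGF2, IGF1R, IGF2R, IGFBP1 and IGFBP4, had differences of at most 0.075 at 800 ng/ml and 0.17 at 200 ng/ml in size, and their intervals lay within ratios of 0.768 to 1.21 at 800 ng/ml and 0.721 to 1.31 at 200 ng/ml. The 5 with the lower signals had differences of up to 0.37 and 0.47, and their intervals reached from −0.90 to 0.63 at 800 ng/ml and from −1.10 to 0.98 at 200 ng/ml on the log2 scale. With all 9 arrays the half-widths were 0.39 for IGF2 and 0.86 for IGF1, since untreated replicate 2 widens the shared estimate of spread. The intervals at 800 ng/ml then reached ratios of 1.81 for IGF1R and 1.94 for IGF2R.

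The partners of these genes were taken as 5 lists with 72 genes, of which 61 were measured and analysed here. None of the 61 (0) was called in 800 ng/ml against untreated cells, where the smallest adjusted p from limma was 0.659, and the unadjusted p was under 0.05 for 3. At 200 ng/ml there were 0 and 1, and between the doses 0 and 2. The shares of all genes at that unadjusted p were 4.17%, 1.78% and 2.41% in the same order. In the fit without untreated replicate 2 the counts at an unadjusted p were 3, 6 and 6 of 61, against 5.36%, 11.3% and 15.3% of all genes, and 0 passed the adjustment in each.

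In the list of binding partners and proteases, the 2 genes with the smallest p at 800 ng/ml against untreated cells were STC1 and IGFBP7. STC1, a stanniocalcin that inhibits PAPP-A, had 4.33, 4.86 and 4.10 in untreated replicates 1, 2 and 3, 4.69, 4.18 and 3.996 at 200 ng/ml, and 3.55, 3.29 and 4.11 at 800 ng/ml. Its difference at 800 ng/ml was −0.78 ± 0.28 (SE) and −0.56 ± 0.26 without untreated replicate 2 (limma, adjusted p = 0.659 and 0.944). The 800 ng/ml values of replicates 1 and 2 lay below all other arrays, and that of replicate 3 lay among them. IGFBP7, a relative with low affinity for IGFs, had 7.06, 6.44 and 6.89 in untreated replicates 1, 2 and 3, 6.68, 7.05 and 7.04 at 200 ng/ml, and 7.06, 7.64 and 7.65 at 800 ng/ml. IGFBP7 was thus highest on 800 ng/ml replicates 2 and 3, the arrays with high neural and glial markers, while replicate 1 was level with untreated replicate 1. Its difference was 0.65 ± 0.24 and, without untreated replicate 2, 0.47 ± 0.20 (limma, adjusted p = 0.659 and 0.918), and the part of the neural and glial transcripts in it was not tested. Over the 14 genes of this list, 4 were higher at 800 ng/ml, with a median of −0.049, and 9 were higher without untreated replicate 2, with a median of 0.040. At 200 ng/ml these were 5 genes (median −0.018) and 10 genes (median 0.029).

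**Figure D4:**
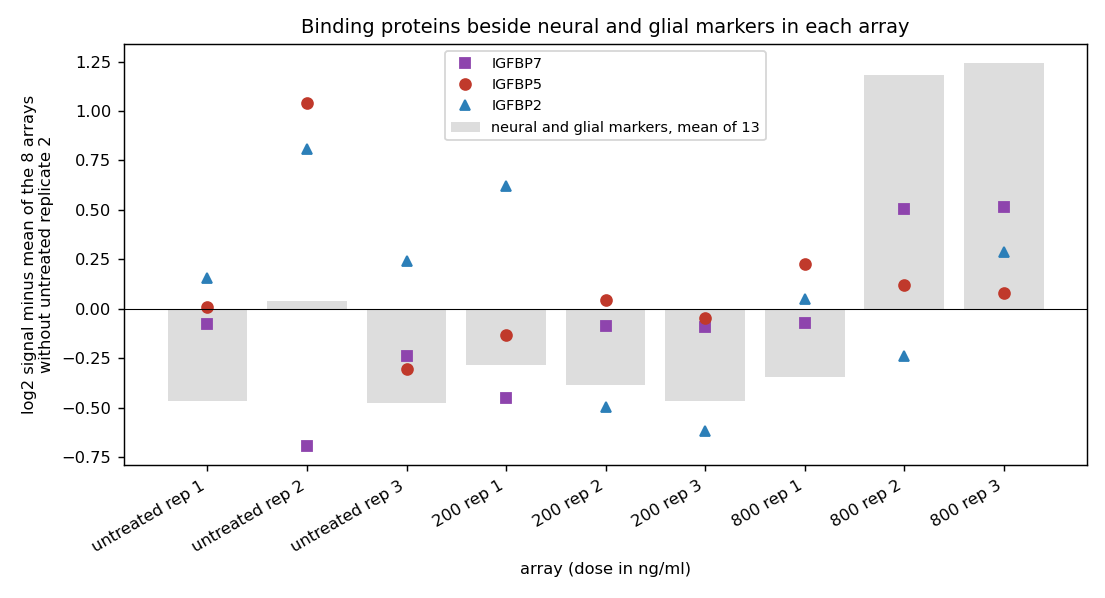
Log2 signal minus the 8-array mean (untreated replicate 2 left out of it) for each of the 9 arrays. Grey bars are the mean of 13 neural and glial markers, and points are IGFBP7, IGFBP5 and IGFBP2. The bars reach 1.18 and 1.24 on 800 ng/ml replicates 2 and 3, where IGFBP7 is at 0.51 on both, IGFBP5 at 0.12 and 0.081, and IGFBP2 at −0.24 and 0.29.

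The receptor signalling list runs from the insulin receptor and its substrates to AKT, FOXO and MAP kinase. With all arrays 22 of its 26 measured genes were higher at 800 ng/ml, with a median of 0.26, and 21 at 200 ng/ml, with a median of 0.18. In the fit without untreated replicate 2 there were 17 and 9, and the medians were 0.037 and −0.048. Among all genes 54.6% and 54.1% were higher at 800 and 200 ng/ml with all arrays, and 48.2% and 47.2% without untreated replicate 2. These shares cover genes of any brightness and stand beside the counts of every list. They are not matched for signal, which matters most with all arrays. In untreated replicate 2 the median gene of the brightest class was at −0.73, relative to untreated replicates 1 and 3. That of the dimmest class was at 0.20. The share of genes of like signal that were higher was not computed. INPPL1, the lipid phosphatase SHIP2, had the smallest p of the list at 800 ng/ml. It had 5.48, 5.54 and 5.79 in untreated replicates 1, 2 and 3, 6.31, 6.24 and 6.12 at 200 ng/ml, and 6.01, 6.06 and 6.05 at 800 ng/ml. All treated arrays lay above all untreated ones, including untreated replicate 2, which did not stand apart for this gene. The difference was 0.44 ± 0.18 (SE) at 800 ng/ml and 0.62 ± 0.18 at 200 ng/ml, and 0.40 ± 0.13 and 0.59 ± 0.13 without untreated replicate 2 (limma, adjusted p = 0.659, 0.966, 0.895 and 0.309). Groups without overlap made up 11.2% of all genes for 800 ng/ml and 6.98% for 200 ng/ml with all arrays. PIK3CB, a catalytic subunit of PI 3-kinase, was next, with 0.67 ± 0.34 at 800 ng/ml and 0.20 ± 0.15 without untreated replicate 2.

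Of the genes around IGF2, 3 encode proteins that bind its mRNA. IGF2BP1 had log2 signals of 9.97, 9.50 and 9.93 in untreated replicates 1, 2 and 3, 10.05, 10.07 and 9.88 at 200 ng/ml, and 10.01, 9.96 and 9.97 at 800 ng/ml. IGF2BP3 had 7.67, 6.06 and 7.65, then 7.43, 7.64 and 7.67, then 7.55, 7.78 and 7.95 in the same order. In both genes untreated replicate 2 was the lowest array. The difference of IGF2BP3 at 800 ng/ml was 0.63 ± 0.37 (SE) and 0.093 ± 0.14 without untreated replicate 2. KCNQ1, an imprinted gene of the same chromosomal domain as IGF2, had −0.68 ± 0.44 and −0.062 ± 0.24. Of the 7 measured genes of this list 5 were higher at 800 ng/ml (median 0.29) and 4 without untreated replicate 2 (median 0.0095). At 200 ng/ml there were 6 (median 0.20) and 3 (median −0.032).

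The growth hormone axis, which drives IGF1 in the liver, had 5 of 9 genes higher at 800 ng/ml (median 0.012) and 3 without untreated replicate 2 (median −0.064). At 200 ng/ml it had 5 (median 0.11) and 4 (median −0.066). STAT5B, the factor that carries the growth hormone signal to IGF1, had 0.47 ± 0.28 (SE) and 0.11 ± 0.13 in those fits, and JAK2, the kinase of the growth hormone receptor, 0.24 ± 0.20 and 0.23 ± 0.17. Among regulators of IGFBP1, 5 of 5 measured genes were higher at 800 ng/ml (median 0.19) and 2 of 5 without untreated replicate 2 (median −0.021). At 200 ng/ml 4 of 5 were higher (median 0.23), and 0 of 5 without that array (median −0.13). ATF4, a factor of the integrated stress response, had 0.36 ± 0.23 and 0.095 ± 0.12, and PPARGC1A, a coactivator of the fasting liver, 0.34 ± 0.28 and −0.021 ± 0.13.

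**Figure D5:**
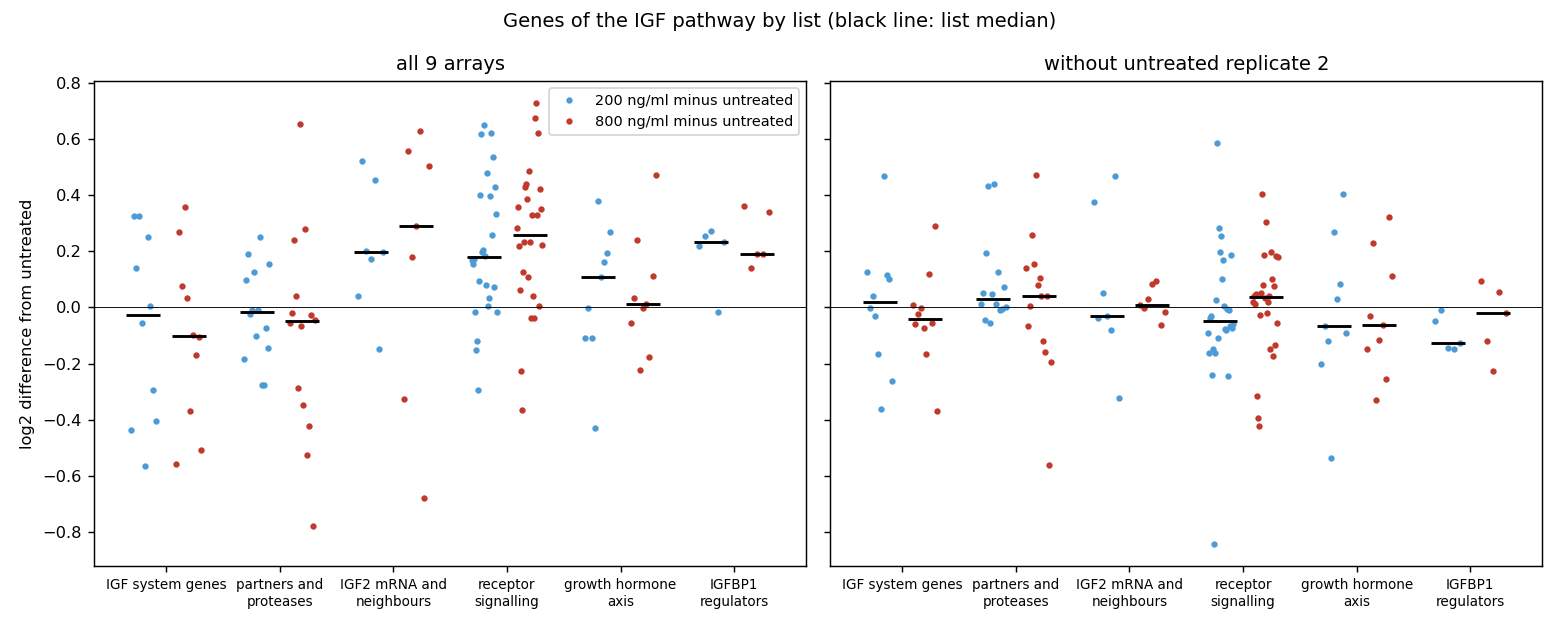
Log2 difference from untreated cells for each measured gene of the IGF system and of 5 lists around it, at 200 ng/ml (blue) and 800 ng/ml (red), with all 9 arrays (left) and without untreated replicate 2 (right). Black lines are list medians. The receptor signalling medians of 0.18 and 0.26 on the left are −0.048 and 0.037 on the right.

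Beyond these lists, the genes closest in pattern were sought for the 3 members with the largest SD over the 8 arrays left when untreated replicate 2 is set aside. For IGFBP2 (SD 0.42) they were HOXB8, UTP3 and TG, with Pearson r of 0.981, 0.944 and 0.941 across the 8 arrays. For IGFBP3 (SD 0.33) they were FFAR4, CLDN5 and DDIT4L, at 0.982, 0.975 and 0.972. For IGFBP6 (SD 0.31) they were ZC3H3, CIMIP6 and GLMN, at 0.979, 0.970 and 0.969. With 8 arrays and 17687 genes such values are a description only: 23, 48 and 37 genes reached r above 0.9 with these members, and the arrays share whatever differs between samples as a whole.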

How the data were processed

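Per the labels, the extracted molecule was total RNA, the label was biotin and the arrays were 1-colour. The authors deposited log2 signals, 1 for each cluster on each array. This scale was read from the range of the values. The submitters' processing notes name R 3.0, and the sources used here do not give normalization, background correction or filters. The table held 21448 clusters, of which the platform annotation gave 17709 a single symbol and 3739 none. The cluster with the highest mean was kept per gene, which left 17687 genes, all matched to RefSeq by Entrez identifier. No 2 arrays held identical values (0 pairs), and array medians were 5.41 to 5.55.

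All 9 arrays entered 1 linear model of dose group in limma 3.58.1 under R 4.3.3 (lmFit, eBayes, default prior), with Benjamini-Hochberg adjustment over all genes. Intervals are 95% intervals of that fit. The procedure was tested on simulated data whose means and spread came from the 8 arrays without untreated replicate 2. Those data held no array like it, so the test cannot show how the fit of all 9 arrays copes with such an array. The number of arrays limits the precision. The members, lists and alternatives were chosen with earlier results of these data known. Named were all members, the 2 genes of each list with the smallest p at 800 ng/ml against untreated, the 3 genes most like each of the 3 most variable members, and IGF2BP1 with the hepatocyte markers ALB and AFP, which were added after values were seen. Same-numbered arrays showed no pairing: their deviations from group means correlated at −0.25 to 0.11, against −0.24 to 0.27 for arrays of different number. Untreated replicate 2 weighs on every untreated deviation, so this cannot tell whether the arrays were made in pairs. Alternatives were quantile normalization, median centring, leaving out the dimmest 25% of genes, the mean of all clusters, a trended robust prior, the 6 arrays compared, a replicate block, array weights and leaving out each array.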

Additional observations from a re-analysis of the deposited data

How the results depend on the processing

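The count of members called was 0 in each comparison under every alternative run, including each left-out array. The number of genes called among all 17687 was 0 in most settings. Array weights gave 732 genes for 800 ng/ml against untreated, 1971 for 200 ng/ml against untreated and 6 between the doses, with a weight of 10.7 for untreated replicate 1 and 0.0399 for untreated replicate 2. With untreated replicate 2 left out as well, a fit added after the data were seen, array weights gave 0 in each. Leaving out 1 array gave 0 to 12 genes for 800 ng/ml against untreated, 0 to 0 for 200 ng/ml against untreated and 0 to 15 between the doses, the highest counts being those without 800 ng/ml replicate 1. The fit with the replicate block, although no pairing by number was seen, called 0 genes and 0 members. Every group holds every replicate number, so the block leaves the differences as they were and could change no sign.

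The signs of some differences did change, and not only those of small ones. Without untreated replicate 2, the difference at 800 ng/ml went from −0.56 to 0.0072 for IGF1 and from 0.36 to −0.0017 for IGF2R. After quantile normalization the difference at 800 ng/ml was −0.022 for IGF2, −0.17 for IGFBP1 and 0.053 for IGFBP3, that of IGFBP4 at 200 ng/ml was −0.065, and that of IGF2R between the doses −0.027. With array weights IGF1R, IGFBP1 and IGFBP5 stood at −0.013, −0.11 and 0.14 at 800 ng/ml, and IGFBP6 at 0.0032 between the doses. With 800 ng/ml replicates 2 and 3 both left out, also added after the data were seen, IGF2 stood at −0.021 at 800 ng/ml, where the lone array was assumed to vary like the others. Leaving out 1 array at a time, the difference at 800 ng/ml ranged from −1.004 to 0.0072 for IGF1, −0.023 to 0.14 for IGF2, −0.060 to 0.44 for IGF1R, −0.0017 to 0.58 for IGF2R, −0.075 to 0.14 for IGFBP1, −0.40 to 0.12 for IGFBP3 and −0.38 to 0.29 for IGFBP5. At 200 ng/ml it ranged from −0.88 to 0.13 for IGF1, −0.0026 to 0.50 for IGF1R, −0.031 to 0.55 for IGF2R, −0.17 to 0.00017 for IGFBP1, −0.051 to 0.47 for IGFBP3, −0.085 to 0.12 for IGFBP4 and −0.57 to 0.10 for IGFBP5. Between the doses it ranged from −0.15 to 0.030 for IGF1R, −0.034 to 0.094 for IGF2R, −0.0069 to 0.20 for IGFBP1, −0.029 to 0.59 for IGFBP2 and −0.29 to 0.11 for IGFBP6. The fit without untreated replicate 2 changed 11 of the 30 signs, more than any other left-out array, of which none changed more than 3. All 11 were signs of differences from untreated cells. Those between the doses use no untreated array and could not change in that fit. Each other left-out array likewise leaves 1 of the 3 comparisons as it was. The differences whose sign held with each array left out were those of IGFBP2 and IGFBP6 at both doses, IGF2 at 200 ng/ml, IGFBP4 at 800 ng/ml, and IGF1, IGF2, IGFBP3, IGFBP4 and IGFBP5 between the doses. Without detection calls it is unknown which of the dim signals lie above background, and IGFBP3 was dropped with the dimmest 25% of genes.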
